A study of Mus musculus with 18 samples.

Results

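The genes described here encode 39 enzymes, carriers and helper proteins of fatty acid oxidation and ketone body formation, measured by RNA sequencing in mouse liver. They were taken by name from the deposited table: 18 act in mitochondria, 12 in peroxisomes, 6 are acyl-CoA thioesterases, 2 are long-chain acyl-CoA synthetases and 1, Bdh1, acts on ketone bodies. All 39 were found among the 19057 lines of the table. A total of 38 passed the filter on low values (1 RPKM or more in 3 or more livers), as did 10507 lines in all. The exception was Eci3, a peroxisomal isomerase, whose highest value in any liver was 0.16 RPKM. RPKM is the number of reads on a gene divided by its length and by the reads of the library, so that levels of different genes can be set side by side.

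Livers of 18 male mice of the outbred ICR stock, 10 weeks old by their labels, fell into 6 groups of 3. The Con mice were controls on a regular diet with saline, and the HFD mice ate a high-fat diet with saline. Con-FMT and A10-FMT mice ate the high-fat diet and were given gut microbiota by mouth (FMT, fecal microbiota transplantation), from control donors for Con-FMT and from donors dosed with alginate oligosaccharide (AOS) at 10 mg/kg for A10-FMT. The labels also hold an AOS group, given AOS at 10 mg/kg and taken here as on the regular diet because its label names no high-fat diet, and an HFD+AOS group, given the high-fat diet and AOS at 10 mg/kg. The methods describe daily oral gavage of AOS for the donor mice, a group called A10 as in the titles of the AOS livers. They do not say whether these livers came from such mice or how the HFD+AOS mice were dosed. By the methods the donors were 3 weeks old at the start, were dosed for 3 weeks and were kept 3 more days. The AOS livers are labelled 10 weeks old. Donor small-intestine contents were pooled within a donor group before the transplant, so the recipients of a group shared 1 source, and no step that cleared the recipients' own microbiota is described. The time of day and the feeding state at collection are not stated, and the labels number the livers without saying which shared a cage or litter, so that p values measure the spread between these livers.

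Fatty acids are shortened by β-oxidation in mitochondria and, for very long, branched or otherwise unusual chains, in peroxisomes. Long-chain acyl-CoA enters mitochondria as acyl-carnitine through CPT1, a translocase and CPT2, and each round of the cycle uses an acyl-CoA dehydrogenase, an enoyl-CoA hydratase, a 3-hydroxyacyl-CoA dehydrogenase and a thiolase. Liver turns much of the acetyl-CoA that results into ketone bodies, and many of these genes are known targets of the nuclear receptor PPARα.

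Promoters of 3 genes on which the results turn are shown: Hadhb, which rose with the high-fat diet, Cpt1a, which rose with the diet and again with AOS, and Crot, which was lower in A10-FMT. The windows are the 250 bases before the RefSeq start site in GRCm38.p6, printed 5′ to 3′ on the strand of the gene, with the letters GGGCGG on either strand (CCGCCC where they lie on the other strand), the core of a GC box, in capitals.
Hadhb (chr5:30155003-30155252, plus strand): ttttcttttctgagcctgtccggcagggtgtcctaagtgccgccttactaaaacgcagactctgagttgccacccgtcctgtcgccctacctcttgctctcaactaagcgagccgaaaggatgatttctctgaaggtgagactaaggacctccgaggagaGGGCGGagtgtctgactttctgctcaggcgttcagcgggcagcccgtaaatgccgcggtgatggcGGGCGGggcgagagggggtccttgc
Cpt1a (chr19:3323051-3323300, plus strand): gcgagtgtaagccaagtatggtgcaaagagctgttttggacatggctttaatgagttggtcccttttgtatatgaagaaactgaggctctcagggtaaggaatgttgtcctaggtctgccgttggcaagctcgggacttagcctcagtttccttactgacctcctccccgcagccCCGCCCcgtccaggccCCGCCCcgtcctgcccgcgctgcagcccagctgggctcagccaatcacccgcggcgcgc
Crot (chr5:8997147-8997396, minus strand): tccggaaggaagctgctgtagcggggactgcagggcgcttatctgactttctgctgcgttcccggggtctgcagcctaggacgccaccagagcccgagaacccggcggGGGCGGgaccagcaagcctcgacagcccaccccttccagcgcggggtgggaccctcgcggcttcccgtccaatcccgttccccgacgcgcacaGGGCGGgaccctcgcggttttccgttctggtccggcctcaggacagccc
Each window held GGGCGG 2 times. Over the 39 windows of the 35 member genes matched in RefSeq, 21 (53.8%) held these letters, against 32.7% of 32851 windows of all genes, and the median GC content was 58.4% against 52.4%. The letters AGGTCA, the half-site of nuclear receptors, were in 6 member windows (15.4%) and in 14.0% of all, and the direct repeat AGGNCANAGGNCA was in 0 member windows and in 0.338% of all. These are matches of letters, not binding sites, and windows of alternative starts overlap. Hadha and Hadhb lie head to head on chromosome 5, with 272 bases between their RefSeq start sites, so that the window printed for Hadhb is also most of the Hadha promoter on the opposite strand. GENCODE M21, also on GRCm38 and the source of the other gene places given, puts the starts of Hadha, of Cpt1a (chromosome 19, from 3322334 to 3385733) and of Crot (chromosome 5, from 8966033 to 8997324) at other bases than RefSeq does.

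Some libraries were unusual within their groups. For 148 genes that differed at least 2-fold between Con replicates 1 and 2, the value of Con replicate 3 lay between them in 98.0%, and for 142 such genes AOS replicate 3 lay between the other 2 in 96.5%. Weighted means of the other 2 livers met Con replicate 3 to within a median log2 difference of 0.0665 and AOS replicate 3 to within 0.0830, against 0.341 to 0.590 for the 12 high-fat livers. Whether these 2 libraries came from separate livers is not known. If they did not, Con and AOS hold fewer than 3 independent livers each. The spread within these groups would then be understated, and p values of comparisons that use them would be too small. Con replicate 3 lay between its companions for 35 of the 38 genes tested here. Con replicate 1 was the lowest of all 18 livers for 32 of the 38 (84.2%), against 21.5% of all genes tested. It also had the lowest sum of 9 hepatocyte markers (48514 RPKM, in a range up to 72283) and the highest sum of cholangiocyte markers (41.2 RPKM, in a range from 19.0). Kupffer cell markers summed to between 75.6 and 182, stellate cell markers to between 74.3 and 119, endothelial markers to between 39.3 and 50.2, lymphocyte markers to between 1.64 and 6.45 and pancreas acinar markers to between 30.6 and 52.9 RPKM, with Prss1 of the last list at 0 in every liver. Adipocyte markers, 6 of 6 in the table, summed to at most 1.03 RPKM in the 5 groups other than A10-FMT, and to between 0.62 and 30.5 in A10-FMT. The part of these differences in the results was not tested. In whole liver, fewer cells of a type and less RNA per cell cannot be told apart.

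**Figure D1:**
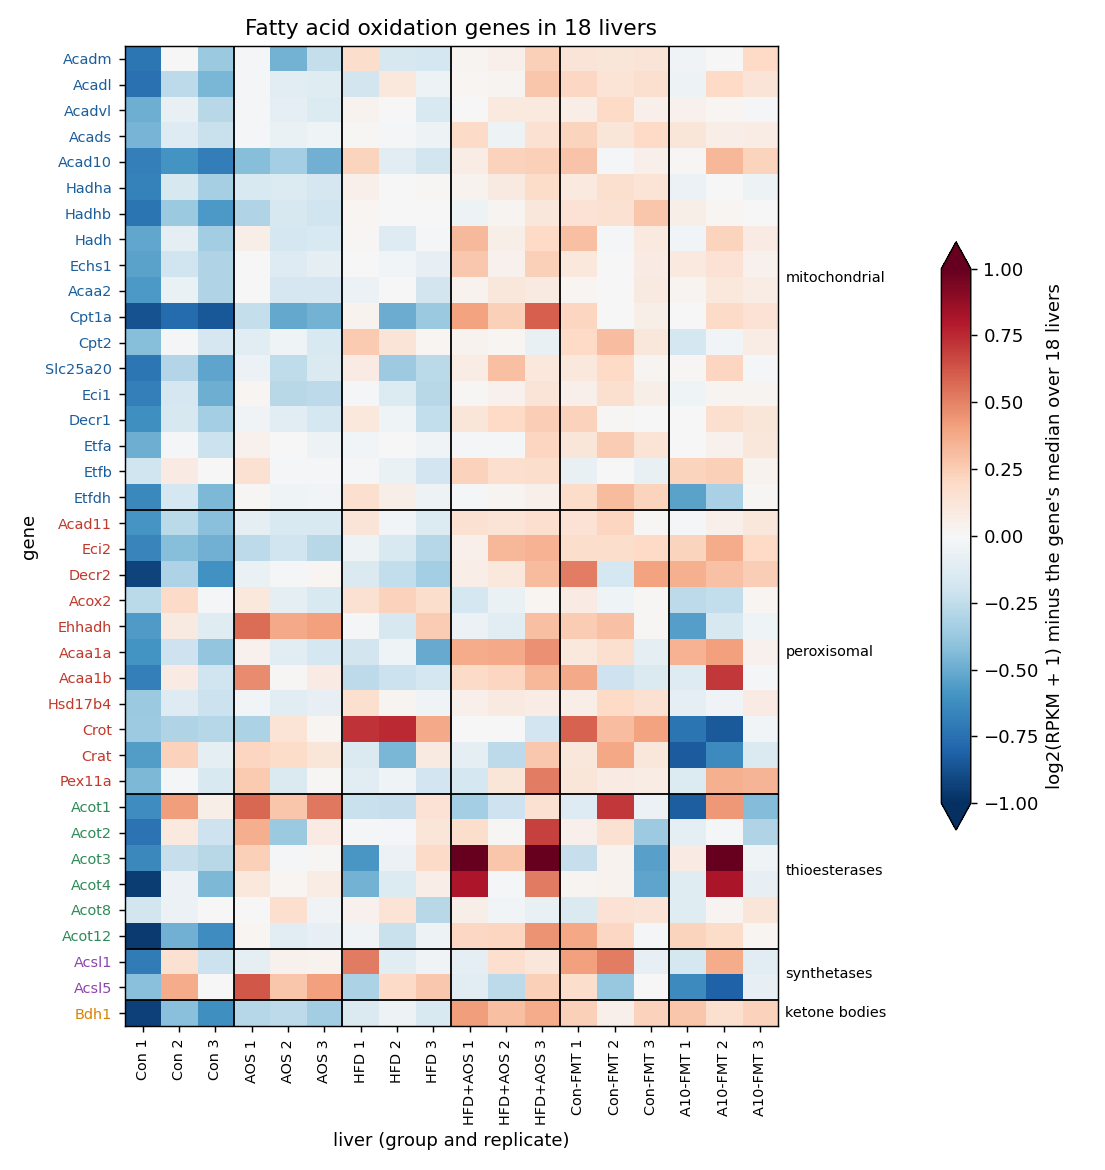
Each row is 1 of the 38 genes tested and each column 1 of the 18 livers, and the colour is log2(RPKM + 1) minus the median of that gene over all livers, drawn from -1 to 1. Vertical lines part the groups and horizontal lines the classes. Con replicate 1, in the first column, was the lowest liver for 32 of the 38 genes.

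The first question was whether the high-fat diet changed these genes. Most of them were higher on it, by small amounts. Each change is given as a log2 fold change ± standard error between group means, 3 livers a group, on the log2(RPKM + 1) scale, where the added 1 makes the changes of low genes look smaller than they are. With the 4 high-fat groups (12 livers) set against both regular-diet groups (6 livers), 22 of the 38 rose and 0 fell at an adjusted p under 0.05 (limma), where 12.9% of all genes were called in either direction and 7.16% were called higher. Of these 22, 15 were mitochondrial (of 18), 5 peroxisomal (of 11 tested), 1 was a thioesterase (Acot12, of 6) and 1 was Bdh1. Neither synthetase was called. At an unadjusted p under 0.05 there were 26, where 27.6% of all genes were so placed, and Acsl5 was the 1 of them that was lower. The median log2 fold change of the 38 was 0.29, against 0.01 over all genes tested, and 19 of the 22 changed by less than 1.5-fold. This comparison averages over AOS and transplants, and no regular-diet group received a transplant.

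The count rested in part on the regular-diet livers described above. Without Con replicate 3 and AOS replicate 3 it was 12, against 4.47% of all genes. It was 18 without Con replicate 1, against 9.21% of all genes. Without Con replicates 1 and 3 and AOS replicate 3 together, a step chosen after the data were seen, 5 genes were called (Acad10, Hadhb, Cpt1a, Eci2 and Bdh1), against 1.38% of all genes, and the median fell to 0.16. All livers of the high-fat groups were above all 6 regular-diet livers for 4 of the 38 genes, Acad10, Bdh1, Hadha and Hadhb, where 0.39% of all genes were so placed.

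The same question was asked within each pair of groups. In HFD against Con, 4 genes rose (Hadhb, Acad10, Crot and Bdh1) and 0 fell, with 0.381% of all genes called, and 22 had an unadjusted p under 0.05, against 15.4% of all genes. The median log2 fold change was 0.31, against 0.05 over all genes, 35 of the 38 were higher, against 62.5% of all genes, and 15 did not overlap between the groups, all of them higher, where 13.8% of all genes were placed so. In HFD+AOS against AOS, 5 rose (Cpt1a, Bdh1, Acad10, Eci2 and Acaa1a) and 0 fell, with 5.44% of all genes called, and 16 had an unadjusted p under 0.05, against 20.5% of all genes. The median was 0.19, against -0.03 over all genes, and 31 of the 38 were higher, against 43.4% of all genes. Every HFD+AOS liver was above every AOS liver for 20 genes, where 11.6% of all genes were placed so. Acot1, Acsl5 and Ehhadh lay wholly below, and the share of all genes placed below is not reported here. Acot3 passed the filter only through HFD+AOS, where it was high, and adds no support to any count that uses the HFD+AOS livers. These comparisons share no liver: 30 of the 38 genes were higher in both, 5 only without AOS, 1 only with AOS, and 2 were lower in both. With 35 and 31 of the 38 higher, most had to be higher in both. The share of all genes higher in both is not reported here, so that the 30 add little to the 2 counts. The 4 calls of HFD against Con were lost without Con replicate 1 and without Con replicate 3, where limma called 0% of all genes and 14 and 18 members had an unadjusted p under 0.05 (10.5% and 11.3% of all genes). They fell to 1 when either HFD replicate 1 (0.152% of all genes) or HFD replicate 2 (0.0857%) was left out. Without Con replicate 2, 12 members were called, against 1.69% of all genes. In a limma fit of the Con and HFD livers alone, 0 of the 38 were called, against 0.019% of all genes, and 15 had an unadjusted p under 0.05, against 11.8%. Without Con replicate 3 and AOS replicate 3 together, limma called 0 in HFD against Con, as it did 0% of all genes, and 17 had an unadjusted p under 0.05, against 10.2% of all genes. Of the 5 calls of HFD+AOS against AOS, 3 were left under the same step, with 1.53% of all genes called.

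**Figure D2:**
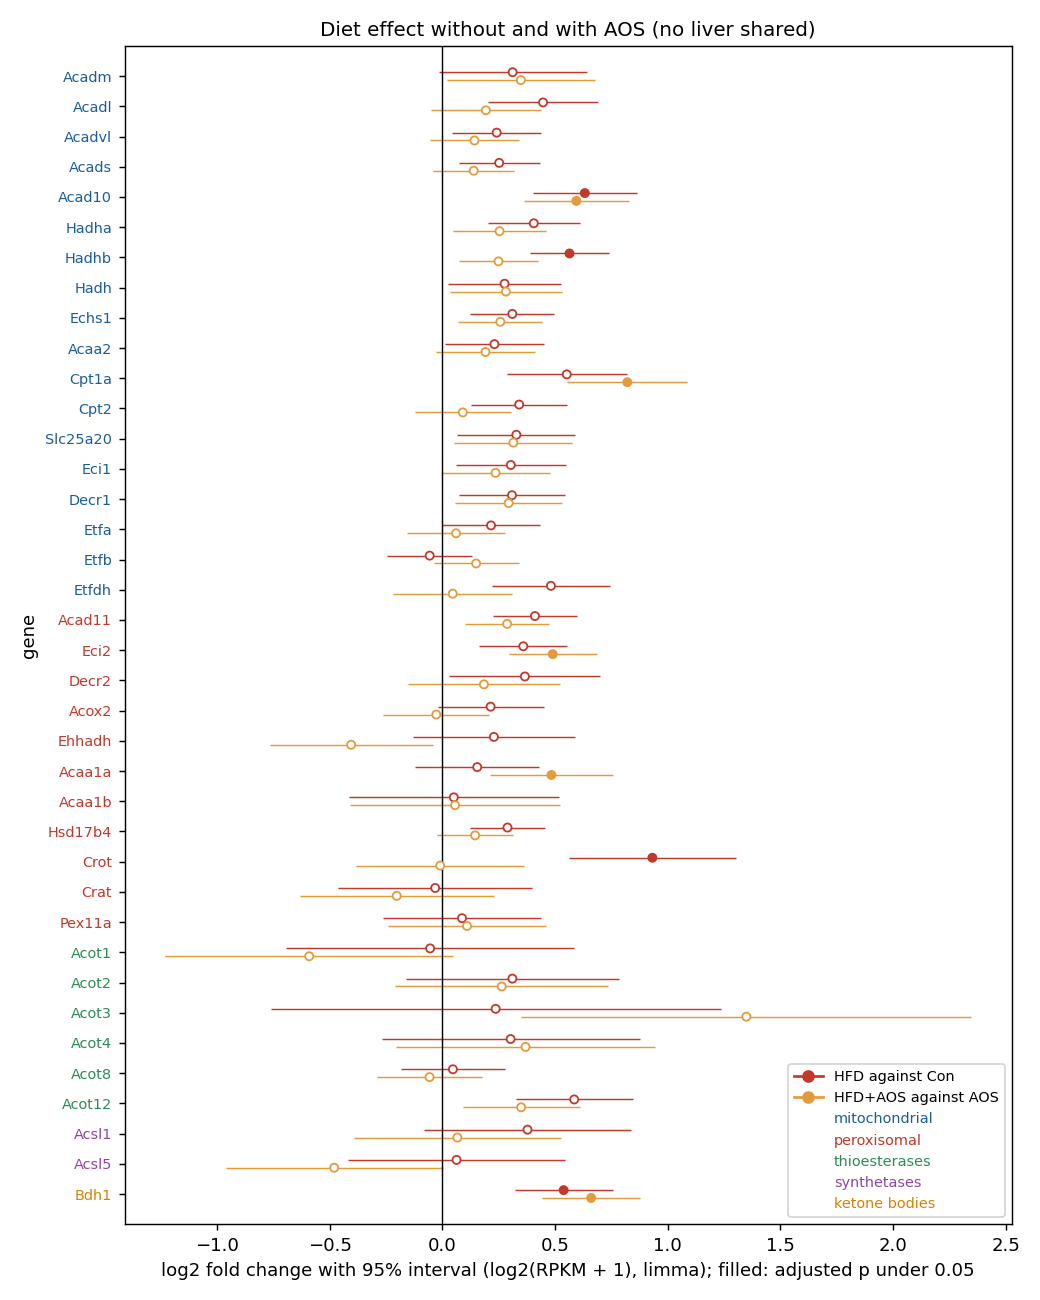
Log2 fold changes on the log2(RPKM + 1) scale with their 95% intervals from limma are drawn for HFD against Con (red) and HFD+AOS against AOS (orange), 3 livers a group, with genes in rows coloured by class. Filled points have an adjusted p under 0.05, 4 in the first comparison and 5 in the second, all to the right of 0.

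Entry into mitochondria begins with Cpt1a, the outer-membrane carnitine palmitoyltransferase that controls the flow of long chains. Its values were 39.9, 42.9 and 40.5 RPKM in Con and 62.2, 51.6 and 52.9 in AOS. On the high-fat diet they were 75.6, 51.96 and 56.9 RPKM in HFD, 97.99, 87.2 and 112 in HFD+AOS, 85.7, 73.5 and 76.7 in Con-FMT, and 74.1, 84.4 and 81.8 in A10-FMT. All 3 HFD+AOS livers were above every other liver of the study. Cpt1a rose in HFD+AOS against AOS (0.82 ± 0.13, adjusted p = 0.00149) and over all diet groups (0.70 ± 0.08, adjusted p = 4.42e-05, 1.63-fold). In HFD against Con every HFD liver was above every Con liver, but the change did not pass the test (0.55 ± 0.13, adjusted p = 0.0748). Slc25a20, the carnitine-acylcarnitine translocase of the inner membrane, read 24.1, 33.04 and 27.9 RPKM in Con, 38.9, 33.8 and 36.6 in AOS, 42.98, 31.3 and 33.5 in HFD, 42.8, 50.2 and 43.8 in HFD+AOS, 43.7, 46.8 and 41.5 in Con-FMT, and 40.9, 47.2 and 40.3 in A10-FMT. Cpt2, which turns acyl-carnitine back to acyl-CoA inside, read 46.1, 61.4 and 55.3 RPKM in Con, 57.8, 60.4 and 56.01 in AOS, 74.8, 68.2 and 63.2 in HFD, 63.7, 63.03 and 59.1 in HFD+AOS, 71.4, 77.1 and 67.4 in Con-FMT, and 54.8, 60.9 and 65.5 in A10-FMT. Both rose over all diet groups, Slc25a20 by 0.37 ± 0.08, adjusted p = 0.0046 and Cpt2 by 0.22 ± 0.06, adjusted p = 0.0258. The call of Cpt2 was lost without Con replicate 1, Con replicate 3, AOS replicate 1 or AOS replicate 3.

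The acyl-CoA dehydrogenases, which take the first step of each round, differ in the chain length they prefer. Acadvl, for very long chains, read 126, 169 and 146 RPKM in Con, 176, 166 and 161 in AOS, 182, 178 and 159.7 in HFD, 176, 189.8 and 189 in HFD+AOS, 186, 203 and 183 in Con-FMT, and 182, 179.8 and 174 in A10-FMT. Acadl, for long chains, read 55.6, 78.5 and 68.2 RPKM in Con, 92.7, 87.1 and 86.5 in AOS, 82.8, 101.4 and 90.9 in HFD, 95.4, 96.1 and 114 in HFD+AOS, 109, 104 and 105 in Con-FMT, and 90.5, 108 and 103 in A10-FMT. The lowest value of both was in Con replicate 1. Acadm, the medium-chain enzyme, read 87.8, 145 and 112 RPKM in Con, 143, 105 and 123 in AOS, 164, 130.03 and 129 in HFD, 148, 150.4 and 172 in HFD+AOS, 159, 158 and 159 in Con-FMT, and 142, 146 and 167 in A10-FMT. Acads, the short-chain enzyme, read 52.1, 65.97 and 61.6 RPKM in Con, 71.3, 68.96 and 69.9 in AOS, 72.9, 71 and 69.7 in HFD, 82.6, 69.4 and 80.5 in HFD+AOS, 84.3, 78.7 and 82.7 in Con-FMT, and 78.3, 75.3 and 75.9 in A10-FMT. All 4 rose over all diet groups, with log2 fold changes from 0.21 ± 0.06 (SE, Acadvl) to 0.37 ± 0.07 (Acadl) and adjusted p values from 0.00331 (Acadl) to 0.0216 (Acadvl), and none was called in either pair of groups, where Acadl in HFD against Con came nearest (0.45 ± 0.12, adjusted p = 0.104). Acadm and Acadvl lost the call without Con replicate 1 or without AOS replicate 2, and Acadvl also without Con replicate 3 or AOS replicate 3.

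Acad10, a less studied member of that family, had lower levels and a larger change. It read 8.72, 9.33 and 8.66 RPKM in Con and 10.6, 11.3 and 10.2 in AOS and, on the high-fat diet, 17.1, 13.5 and 12.7 RPKM in HFD, 15.5, 17.2 and 17.4 in HFD+AOS, 18.1, 14.4 and 15.1 in Con-FMT, and 14.7, 18.7 and 17.2 in A10-FMT. The 12 high-fat livers were all above the 6 regular-diet livers. The log2 fold change was 0.63 ± 0.11, adjusted p = 0.0283 in HFD against Con, 0.59 ± 0.11, adjusted p = 0.00517 in HFD+AOS against AOS, and 0.65 ± 0.07, adjusted p = 3.12e-05 over all diet groups, 1.57-fold. Of its 40-base transcript windows, 23.1% are shared with Acad12, so that reads of the pair may not have been kept apart.

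Hadha and Hadhb encode the α and β subunits of the trifunctional protein, which carries out the later steps of the cycle for long chains. Hadhb, on chromosome 5 from 30155248 to 30184593, read 58.7, 75.5 and 65.7 RPKM in Con and 79.6, 87.5 and 85.2 in AOS. Its high-fat values were 99.6, 97.9 and 98.2 RPKM in HFD, 94.6, 99.8 and 106 in HFD+AOS, 109, 109 and 119 in Con-FMT, and 102, 99.4 and 97.96 in A10-FMT. Hadha, on chromosome 5 from 30118304 to 30155162 on the opposite strand, read 56.1, 80.7 and 71.4 RPKM in Con, 80.9, 82.05 and 79.95 in AOS, 93.3, 89.8 and 90.8 in HFD, 92.4, 95.9 and 102 in HFD+AOS, 96.6, 100.9 and 99.3 in Con-FMT, and 86.8, 90.5 and 86.8 in A10-FMT. For both, all 12 high-fat livers were above all 6 regular-diet livers. Hadhb rose in HFD against Con (0.56 ± 0.08, adjusted p = 0.0175), where the 3 HFD livers lay within 2 RPKM of each other, and over all diet groups (0.45 ± 0.05, adjusted p = 5.9e-05). Hadha rose over all diet groups (0.32 ± 0.06, adjusted p = 0.00231), and its change in HFD against Con did not pass (0.41 ± 0.10, adjusted p = 0.0861).

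For shorter chains the later steps fall to separate enzymes. Echs1, the enoyl-CoA hydratase, read 97.8, 123 and 115 RPKM in Con, 141, 129.7 and 133 in AOS, 143, 139 and 134 in HFD, 171, 146 and 168 in HFD+AOS, 153, 141 and 150.4 in Con-FMT, and 152, 157 and 146 in A10-FMT. Hadh, the short-chain hydroxyacyl-CoA dehydrogenase, read 122, 165 and 137 RPKM in Con, 183, 155 and 157 in AOS, 176, 160.2 and 174 in HFD, 219.6, 183 and 201 in HFD+AOS, 216, 174 and 188 in Con-FMT, and 172, 204 and 185 in A10-FMT. Acaa2, the mitochondrial thiolase and the most abundant of the 18 mitochondrial genes in these livers, read 324, 461 and 391 RPKM in Con, 482, 430.2 and 428 in AOS, 463, 481 and 425 in HFD, 494, 521 and 514 in HFD+AOS, 490.2, 483 and 515 in Con-FMT, and 492, 520.2 and 507 in A10-FMT. All 3 rose over all diet groups, by log2 fold changes of 0.29 ± 0.05 (SE, Echs1), 0.30 ± 0.07 (Hadh) and 0.24 ± 0.06 (Acaa2), with adjusted p values of 0.00281, 0.0127 and 0.0216. The call of Acaa2 was lost without Con replicate 1, Con replicate 3, AOS replicate 2 or AOS replicate 3.

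Unsaturated chains need auxiliary enzymes. Eci1, an enoyl-CoA isomerase, read 52.7, 75.98 and 60.5 RPKM in Con, 86.3, 70.1 and 70.8 in AOS, 84.6, 77.4 and 70.2 in HFD, 85.96, 87.9 and 93.3 in HFD+AOS, 88.2, 95.3 and 89.03 in Con-FMT, and 82.8, 86.7 and 87.1 in A10-FMT. Decr1, the 2,4-dienoyl-CoA reductase, read 35.6, 48.98 and 43.1 RPKM in Con, 53.5, 50.7 and 48.4 in AOS, 59.1, 53.1 and 46.1 in HFD, 59.5, 62.9 and 65.3 in HFD+AOS, 64.4, 55.2 and 54.7 in Con-FMT, and 54.9, 61.4 and 59.6 in A10-FMT. They rose by the same log2 fold change over all diet groups, 0.31 ± 0.07, adjusted p = 0.00803 for Eci1 and 0.31 ± 0.07, adjusted p = 0.00688 for Decr1. Both had their lowest value in Con replicate 1.

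The electrons of the dehydrogenases pass to the electron transfer flavoprotein (Etfa and Etfb) and its ubiquinone oxidoreductase (Etfdh), and these were the 3 mitochondrial genes that were not called for diet. Etfa was between 144 and 242 RPKM and Etfb between 237 and 323 over the 18 livers. The log2 fold changes over all diet groups were 0.18 ± 0.06, adjusted p = 0.0652 for Etfa and 0.05 ± 0.05, adjusted p = 0.597 for Etfb. Etfdh read 65.4, 91 and 75.2 RPKM in Con and 104, 99.95 and 101.2 in AOS. On the high-fat diet it read 116, 107 and 99.4 RPKM in HFD, 103, 105 and 107 in HFD+AOS, 117, 129 and 120.4 in Con-FMT, and 71, 82.1 and 104 in A10-FMT. The 3 A10-FMT livers held the lowest, the second lowest and the fifth lowest of the 12 high-fat values, and the change over all diet groups did not pass (0.23 ± 0.08, adjusted p = 0.0547).

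Among the peroxisomal genes, 5 of the 11 tested rose over all diet groups. Eci2, an isomerase found in peroxisomes and mitochondria, read 60.5, 71.7 and 68.7 RPKM in Con and 80.2, 84.01 and 79.2 in AOS and, on the high-fat diet, 92.8, 86.6 and 79 RPKM in HFD, 100.05, 122 and 123 in HFD+AOS, 109, 109 and 111 in Con-FMT, and 113, 125 and 111 in A10-FMT. HFD replicate 3 alone among the high-fat livers was below an AOS liver. Eci2 rose over all diet groups (0.52 ± 0.06, adjusted p = 4.37e-05, 1.43-fold) and in HFD+AOS against AOS (0.49 ± 0.09, adjusted p = 0.00572). Acad11, an acyl-CoA dehydrogenase, read 61.2, 76.4 and 69.04 RPKM in Con, 86.1, 82.9 and 82.9 in AOS, 101.1, 90.6 and 83.8 in HFD, 103, 102 and 104 in HFD+AOS, 102, 108 and 93.1 in Con-FMT, and 91.7, 95.8 and 100.2 in A10-FMT. Hsd17b4, the D-bifunctional protein of branched and very long chains, read 108, 127 and 119.8 RPKM in Con, 136, 129 and 132 in AOS, 156, 142 and 136 in HFD, 145, 148 and 146 in HFD+AOS, 146, 160.1 and 155 in Con-FMT, and 129.9, 136 and 147 in A10-FMT. Decr2, the peroxisomal dienoyl-CoA reductase, read 33.5, 51.8 and 42.1 RPKM in Con, 61.5, 63.4 and 65.5 in AOS, 58.1, 54.03 and 50.7 in HFD, 67.4, 69.5 and 80.3 in HFD+AOS, 92.3, 56.9 and 85.6 in Con-FMT, and 82.5, 79.1 and 76.8 in A10-FMT. These 3 rose over all diet groups by 0.36 ± 0.05, adjusted p = 0.000557 (Acad11), 0.22 ± 0.05, adjusted p = 0.00798 (Hsd17b4) and 0.43 ± 0.10, adjusted p = 0.00803 (Decr2).

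Acaa1a and Acaa1b are near copies of the peroxisomal thiolase and share 38.5% and 40.2% of their 40-base transcript windows, so that reads may have been counted for both and their values are uncertain. Acaa1a read 68.9, 90.6 and 79.2 RPKM in Con and 108, 96.5 and 92.4 in AOS and, on the high-fat diet, 91.7, 102 and 73.5 RPKM in HFD, 135, 136 and 144 in HFD+AOS, 112, 117 and 97.7 in Con-FMT, and 133, 139 and 108 in A10-FMT. It rose in HFD+AOS against AOS (0.48 ± 0.13, adjusted p = 0.0403) and over all diet groups (0.36 ± 0.08, adjusted p = 0.00732). In HFD against Con the value was 0.15 ± 0.13, adjusted p = 0.598. Acaa1b ranged from 229 to 603 RPKM, and its change over all diet groups was 0.10 ± 0.13, adjusted p = 0.701. The call of Acaa1a in HFD+AOS against AOS was lost in 5 of the 6 fits that left out 1 liver of these groups, the exception being AOS replicate 1.

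Crot, the carnitine octanoyltransferase that passes shortened chains out of the peroxisome, had the widest change of the peroxisomal genes. It read 149.7, 157 and 158 RPKM in Con and 155, 212 and 196 in AOS. On the high-fat diet it read 319, 325 and 251 RPKM in HFD, 193, 193 and 169 in HFD+AOS, 292, 239.9 and 256 in Con-FMT, and 116, 108 and 189 in A10-FMT. The HFD livers and the Con-FMT livers were all above the 6 regular-diet livers, the HFD+AOS livers lay among the AOS livers, and 2 of the 3 A10-FMT livers were below every other liver of the study. Crot rose in HFD against Con (0.93 ± 0.18, adjusted p = 0.0352, 1.91-fold), while in HFD+AOS against AOS the log2 fold change was -0.01 ± 0.18, adjusted p = 0.985. The difference between these diet effects was -0.94 ± 0.25, adjusted p = 0.108 and was called only in the fit of the 4 groups compared (adjusted p = 0.0303).

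The other peroxisomal genes were not called for diet. Ehhadh, the L-bifunctional enzyme and a classical PPARα target, read 45.1, 71.6 and 61.6 RPKM in Con and 99.3, 87.6 and 89.7 in AOS and, on the high-fat diet, 66.8, 60.1 and 80.5 RPKM in HFD, 64.5, 61.96 and 83.2 in HFD+AOS, 80.4, 82.6 and 67.7 in Con-FMT, and 45.7, 59.9 and 65.4 in A10-FMT. The AOS livers were the highest of the study, and the HFD+AOS livers were all below them. The log2 fold change of Ehhadh was 0.23 ± 0.17, adjusted p = 0.545 in HFD against Con and -0.40 ± 0.17, adjusted p = 0.193 in HFD+AOS against AOS. Crat, the carnitine acetyltransferase, read 6.02, 11.1 and 8.69 RPKM in Con, 11, 10.7 and 10.2 in AOS, 8.33, 6.5 and 9.99 in HFD, 8.62, 7.62 and 11.5 in HFD+AOS, 10.2, 12.5 and 10.2 in Con-FMT, and 4.81, 5.65 and 8.33 in A10-FMT. Acox2, the oxidase of branched chains and bile acid precursors, ranged from 70.8 to 100.3 RPKM, and Pex11a, a membrane protein that helps peroxisomes multiply, from 22.1 to 43.8 RPKM. Their log2 fold changes over all diet groups were 0.03 ± 0.07, adjusted p = 0.831 for Acox2, 0.16 ± 0.10, adjusted p = 0.338 for Pex11a and -0.15 ± 0.12, adjusted p = 0.481 for Crat.

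Acyl-CoA thioesterases split acyl-CoA into free acid and CoA. Acot12, a cytosolic enzyme that prefers acetyl-CoA, read 18.9, 26.7 and 24.1 RPKM in Con and 38.2, 34.8 and 35.5 in AOS and, on the high-fat diet, 36.7, 32.1 and 36.4 RPKM in HFD, 43.6, 43.97 and 51.9 in HFD+AOS, 49.7, 43.7 and 37.2 in Con-FMT, and 44.3, 42.9 and 38.3 in A10-FMT. It rose over all diet groups (0.50 ± 0.08, adjusted p = 0.000512, 1.42-fold), and its change in HFD against Con missed the threshold (0.59 ± 0.12, adjusted p = 0.0517). Acot1, the cytosolic long-chain enzyme, read 4.19, 9.69 and 7.34 RPKM in Con, 10.9, 8.67 and 10.5 in AOS, 5.86, 5.81 and 7.85 in HFD, 5.31, 5.91 and 7.89 in HFD+AOS, 6.32, 12.04 and 6.66 in Con-FMT, and 3.51, 9.78 and 4.93 in A10-FMT. Acot1 did not pass in any comparison, and the AOS livers were all above the HFD+AOS livers. Acot2, the mitochondrial form, lay between 0.5 and 3.03 RPKM, Acot4 between 2.65 and 11.4, and Acot8, a peroxisomal form, between 8.75 and 12.3. Acot1, Acot2 and Acot3 share 37.0%, 31.8% and 20.6% of their transcript windows with other genes, so that their values are uncertain.

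The synthetases activate fatty acids to acyl-CoA. Acsl1 read 183, 331 and 257 RPKM in Con, 278, 308 and 306 in AOS, 428, 276 and 289.97 in HFD, 278, 335 and 322 in HFD+AOS, 396, 425 and 281 in Con-FMT, and 264, 385 and 277 in A10-FMT. Acsl5 read 77.6, 135 and 104 RPKM in Con, 160.4, 126 and 139 in AOS, 83.2, 118 and 126 in HFD, 96.1, 86.6 and 123 in HFD+AOS, 117, 79.9 and 104 in Con-FMT, and 66.4, 58.9 and 97.9 in A10-FMT. Neither was called in any comparison, and over all diet groups the log2 fold changes were 0.25 ± 0.13, adjusted p = 0.232 for Acsl1 and -0.35 ± 0.14, adjusted p = 0.109 for Acsl5.

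Bdh1 interconverts acetoacetate and β-hydroxybutyrate in the mitochondrial matrix. It read 49.9, 71.9 and 62.8 RPKM in Con and 78.8, 80.5 and 75.6 in AOS and, on the high-fat diet, 87.04, 92.96 and 86.7 RPKM in HFD, 129, 119 and 125 in HFD+AOS, 114, 100.05 and 113 in Con-FMT, and 117, 108 and 113 in A10-FMT. All 12 high-fat livers were above the 6 regular-diet livers, and the 9 livers given AOS or a transplant with the diet were above the 3 HFD livers. The log2 fold change was 0.54 ± 0.10, adjusted p = 0.0352 in HFD against Con, 0.66 ± 0.10, adjusted p = 0.00165 in HFD+AOS against AOS and 0.64 ± 0.06, adjusted p = 2.7e-05 over all diet groups, 1.56-fold. Other ketone genes were taken from a list of 9, of which 7 were tested. Over all diet groups 3 rose and 2 fell, where 12.9% of all genes were called in either direction. Acat1, the mitochondrial acetoacetyl-CoA thiolase, was among those that rose (0.60 ± 0.10, adjusted p = 0.00154). The 2 that fell were monocarboxylate transporters, Slc16a1 (-0.26 ± 0.07, adjusted p = 0.0299) and Slc16a6 (-0.30 ± 0.08, adjusted p = 0.0231). Slc16a1 read 14.5, 13.3 and 13.5 RPKM in Con, 14.1, 13.5 and 14.6 in AOS, 13.4, 18.7 and 16.6 in HFD, 9.01, 9.48 and 9.01 in HFD+AOS, 14.3, 16.4 and 12.9 in Con-FMT, and 7.2, 6.89 and 9.74 in A10-FMT. Its HFD+AOS and A10-FMT livers were below all others, and in HFD against Con its log2 fold change was of the opposite sign and did not pass (0.21 ± 0.12, adjusted p = 0.412). Slc16a6 read 2.65, 4.1 and 3.49 RPKM in Con, 2.4, 3.38 and 3.29 in AOS, 2.8, 2.91 and 3.6 in HFD, 1.86, 1.7 and 1.84 in HFD+AOS, 2.67, 3.56 and 2.65 in Con-FMT, and 2.2, 1.66 and 1.97 in A10-FMT. Its HFD+AOS and A10-FMT livers were likewise below all others, and in HFD against Con the value was -0.10 ± 0.13, adjusted p = 0.769.

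**Figure D3:**
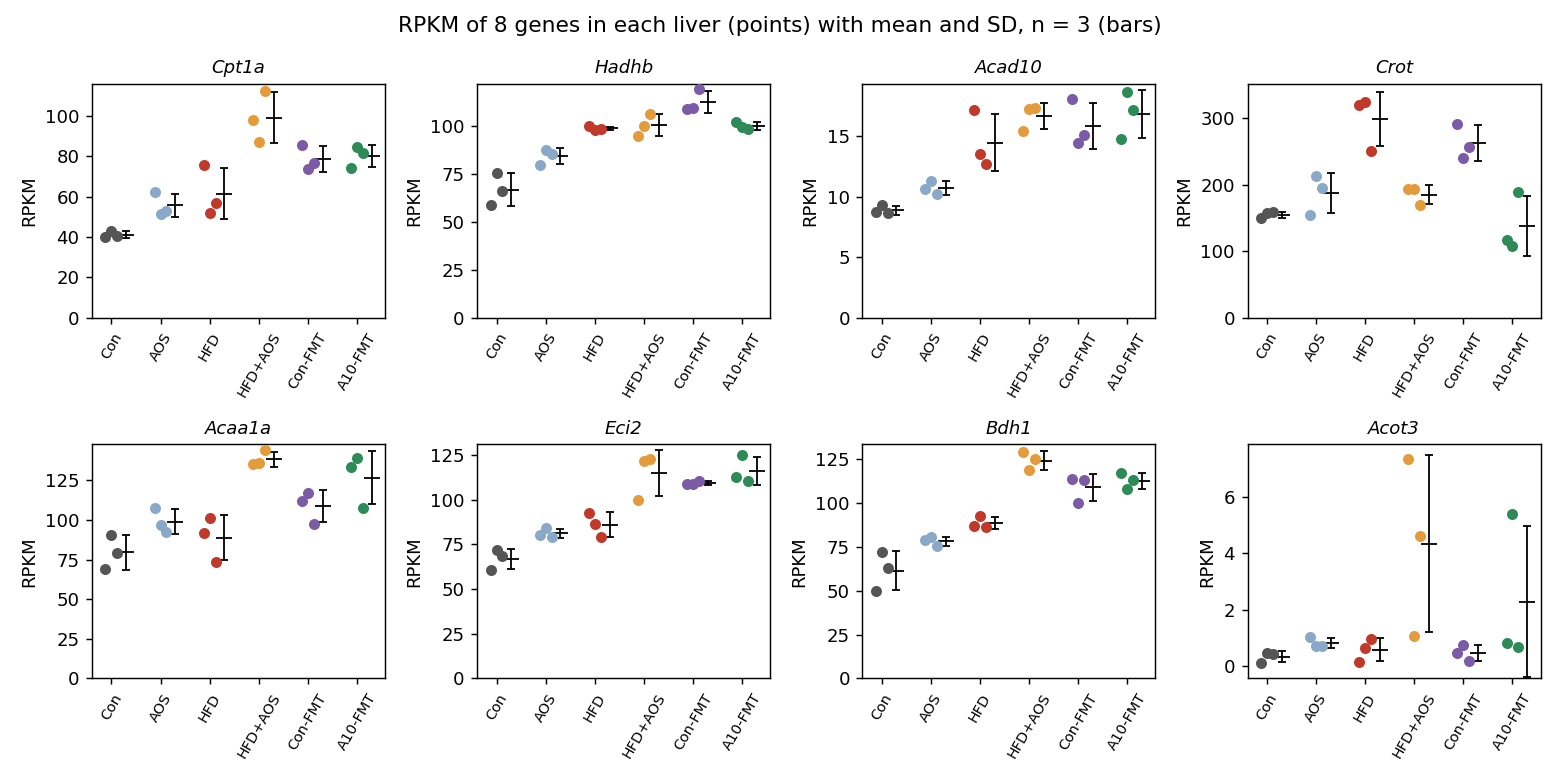
RPKM of 8 genes in each of the 18 livers (points, 3 a group), with the group mean and SD beside them (bars). Hadhb, Acad10 and Bdh1 have all 12 high-fat livers above the 6 regular-diet livers, Crot is lowest in 2 A10-FMT livers, and Acot3 is highest in 2 HFD+AOS livers and 1 A10-FMT liver.

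AOS on the regular diet was compared with Con. No gene of the 38 was called, with 0.133% of all genes called, although 19 had an unadjusted p under 0.05, against 15.5% of all genes. Of the 38, 37 were higher, against 67.8% of all genes, with a median log2 fold change of 0.27 against 0.07 over all genes. All 3 AOS livers were above all 3 Con livers for 18 genes, where 19.5% of all genes were placed so. The smallest unadjusted p values were those of Acot12 (0.63 ± 0.12, adjusted p = 0.064), Hadhb (0.34 ± 0.08, adjusted p = 0.105) and Ehhadh (0.65 ± 0.17, adjusted p = 0.118). Without Con replicate 2, 6 of the 38 were called, these 3 among them, against 1.26% of all genes. The difference between the diet effects with and without AOS was called for 0 of the 38 by limma (0.504% of all genes), 4 had an unadjusted p under 0.05 (14.7% of all genes), and the median was -0.10 against -0.08 over all genes. After Crot, the next were Hadhb (-0.32 ± 0.12, adjusted p = 0.236) and Ehhadh (-0.63 ± 0.24, adjusted p = 0.243).

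Within the high-fat diet, the question was what AOS and the transplants added. The comparisons of HFD+AOS, Con-FMT and A10-FMT with HFD all use the same 3 HFD livers. With AOS, 5 genes rose (Cpt1a, Acaa1a, Bdh1, Eci2 and Acot3) and 1 fell (Crot), with 8.75% of all genes called. Acot3 reached 1 RPKM in all 3 HFD+AOS livers and in only 2 others, so that it passed the filter only through the group where it was high, and its call adds no support to the count, which is 4 rises without it. At an unadjusted p under 0.05 there were 14, against 26.2% of all genes. The median log2 fold change was 0.16, against -0.01 over all genes, and 31 of the 38 were higher, against 48.7% of all genes. Every HFD+AOS liver was above every HFD liver for 15, where 13.2% of all genes were placed so, and below for Acox2 and Crot. Acot3 was among the 14, the 31 and the 15 and adds no support to them either. With the control transplant, 0 were called by limma and 9 had an unadjusted p under 0.05, with 0.00952% of all genes called and 6.63% at an unadjusted p under 0.05. Here 33 of the 38 were higher, against 49.5% of all genes, and the median was 0.17, against -0.0015 over all genes. Every Con-FMT liver was above every HFD liver for 14, where 6% of all genes were placed so, and below for Acox2. With the A10 transplant, 2 rose (Acaa1a and Eci2) and 1 fell (Crot), with 6.6% of all genes called. At an unadjusted p under 0.05 there were 10, against 24.5% of all genes. The median was 0.12, against -0.03 over all genes, and 26 of the 38 were higher, against 43.2% of all genes. Every A10-FMT liver was above every HFD liver for 10, where 10% of all genes were placed so, and below for Acox2 and Crot. For HFD+AOS, Con-FMT and A10-FMT alike, the share of all genes placed wholly below HFD is not reported here. With the library medians set equal, 6 rose and 1 fell in A10-FMT, against 10.2% of all genes. In a limma fit of the HFD and A10-FMT livers alone 0 were called (0.742% of all genes), with 10 at an unadjusted p under 0.05 (17.6% of all genes). The 3 calls of 38 in A10-FMT made a share of the members near that over all genes.

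Cpt1a, whose values in each liver are given above, rose in HFD+AOS against HFD (0.69 ± 0.13, adjusted p = 0.00388, 1.61-fold). With the transplants its log2 fold changes over HFD were 0.36 ± 0.13, adjusted p = 0.63 for Con-FMT and 0.39 ± 0.13, adjusted p = 0.0693 for A10-FMT. Bdh1 rose with AOS (0.48 ± 0.10, adjusted p = 0.0114), and its values for the transplants were 0.29 ± 0.10, adjusted p = 0.637 for Con-FMT and 0.34 ± 0.10, adjusted p = 0.0566 for A10-FMT. Acaa1a rose with AOS (0.65 ± 0.13, adjusted p = 0.00754) and with the A10 transplant (0.51 ± 0.13, adjusted p = 0.0279), and its change with the control transplant did not pass (0.30 ± 0.13, adjusted p = 0.733). Eci2 rose with AOS (0.41 ± 0.09, adjusted p = 0.0146) and with the A10 transplant (0.43 ± 0.09, adjusted p = 0.0121), while for the control transplant the value was 0.35 ± 0.09, adjusted p = 0.489. The Acaa1a call in A10-FMT was lost without HFD replicate 3, A10-FMT replicate 1 or A10-FMT replicate 2, and that of Eci2 without HFD replicate 3 or A10-FMT replicate 2. In HFD+AOS the call of Bdh1 was lost without HFD+AOS replicate 1, and that of Eci2 without HFD replicate 3, HFD+AOS replicate 2 or HFD+AOS replicate 3. In a fit of the HFD and HFD+AOS livers alone, Cpt1a (adjusted p = 0.054), Eci2 (adjusted p = 0.0967) and Acot3 (adjusted p = 0.112) were not called.

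Acot3, a thioesterase listed at 1.07 RPKM or less in 15 of the 18 livers, read 0.09, 0.45 and 0.41 RPKM in Con, 1.01, 0.69 and 0.72 in AOS, 0.14, 0.64 and 0.95 in HFD, 7.34, 1.07 and 4.6 in HFD+AOS, 0.45, 0.75 and 0.17 in Con-FMT, and 0.8, 5.39 and 0.66 in A10-FMT. HFD+AOS replicates 1 and 3 and A10-FMT replicate 2 were the exceptions. Its call in HFD+AOS against HFD (1.58 ± 0.47, adjusted p = 0.0485) was lost in 5 of the 6 fits that left out 1 liver of these groups, the exception being HFD+AOS replicate 2, and at the pseudocount of 0.1 the adjusted p was 0.0528. Decr2, which with Eci2 and Cpt1a had the smallest p values in the Con-FMT comparison, had a log2 fold change of 0.49 ± 0.16, adjusted p = 0.623 over HFD in Con-FMT and 0.54 ± 0.16, adjusted p = 0.0509 in A10-FMT.

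Crot fell in A10-FMT against HFD (-1.15 ± 0.18, adjusted p = 0.00123), to a mean of 138 ± 45.0 RPKM (SD, n = 3) from 298 ± 41.0 RPKM. All 3 A10-FMT livers were below all 3 HFD livers, and the call was lost only in the fit of the groups compared (adjusted p = 0.0662) among 12 alternatives. Adipocyte markers summed to between 0.62 and 30.5 RPKM in the A10-FMT livers, and their part in the Crot values was not tested. Crot fell also in HFD+AOS against HFD (-0.68 ± 0.18, adjusted p = 0.0272), a call lost in 5 of the 6 fits that left out 1 liver of these groups, the exception being HFD replicate 3. In Con-FMT against HFD the value was -0.18 ± 0.18, adjusted p = 0.891.

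The transplants were also set against each other. In A10-FMT against Con-FMT, 0 of the 38 genes rose and 2 fell, with 1.68% of all genes called. At an unadjusted p under 0.05 there were 6 (16.4% of all genes), and the median was -0.07 against -0.03 over all genes. Of the 38, 24 were lower, as were 5991 of the 10507 genes tested. All A10-FMT livers were below all Con-FMT livers for 11 genes, where 11.2% of all genes were placed so, and above for Etfb. The share of all genes placed wholly above is not reported here. Those called were Crot (-0.97 ± 0.18, adjusted p = 0.00979) and Etfdh (-0.52 ± 0.12, adjusted p = 0.0445). The next was Crat (-0.74 ± 0.20, adjusted p = 0.081), whose 3 A10-FMT livers were below all 3 Con-FMT livers. The Crot call was lost without A10-FMT replicate 1 or A10-FMT replicate 2. The Etfdh call was lost without each liver of both groups in turn except A10-FMT replicate 3. Without that liver 3 of the 38 were called, against 5.37% of all genes. The lowest Etfdh value of the group was that of A10-FMT replicate 1. The part of adipocyte marker RNA in the Etfdh values of A10-FMT was not tested.

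**Figure D4:**
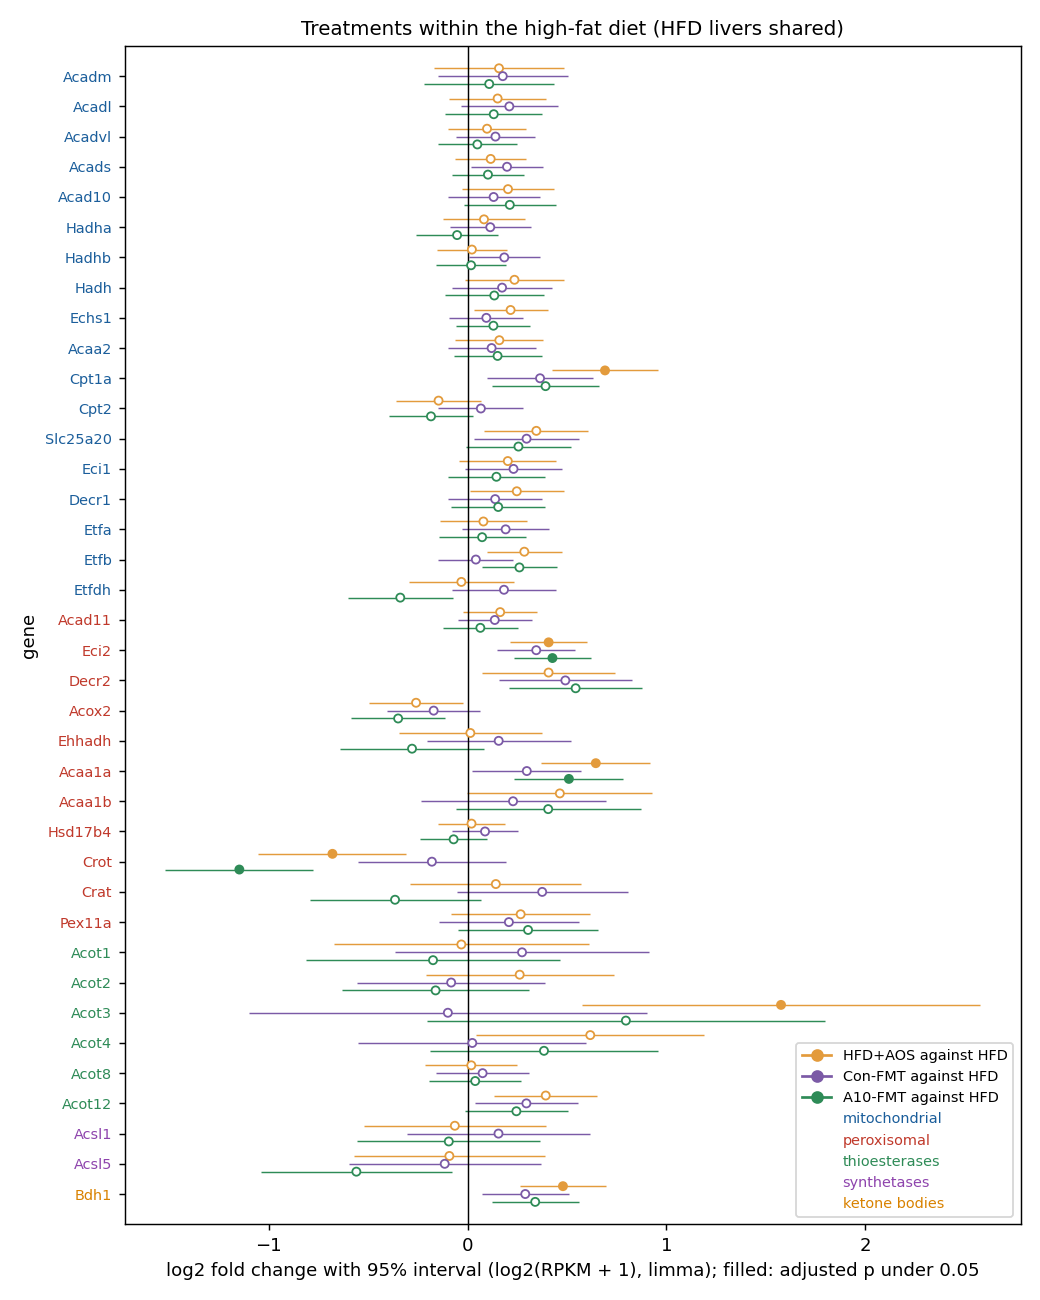
Log2 fold changes over HFD on the log2(RPKM + 1) scale, with 95% intervals from limma, are drawn for HFD+AOS (orange), Con-FMT (purple) and A10-FMT (green), 3 livers a group and the same HFD livers in each. Filled points have an adjusted p under 0.05: 6 for HFD+AOS, 0 for Con-FMT and 3 for A10-FMT, with Crot at -0.68 in HFD+AOS and -1.15 in A10-FMT. Among the 6 is Acot3, which passed the filter only through HFD+AOS.

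Other genes of these pathways, from lists written beside the 39, were fitted in the same way. Of 32 other peroxisomal genes tested, 13 rose over all diet groups and 1 fell. Of all genes, 12.9% were called in either direction and 7.16% were called higher. Slc27a2, which activates very long chains and takes up fatty acids, read 237, 248 and 248 RPKM in Con, 325, 333 and 324 in AOS, 436, 319.6 and 369.96 in HFD, 414, 519 and 481 in HFD+AOS, 529.7, 492 and 472 in Con-FMT, and 464, 497 and 424 in A10-FMT. The 6 Con and AOS livers were all below the 12 high-fat livers except HFD replicate 2. Slc27a2 rose in HFD against Con (0.61 ± 0.11, adjusted p = 0.0317), in HFD+AOS against AOS (0.52 ± 0.11, adjusted p = 0.0113) and over all diet groups (0.66 ± 0.07, adjusted p = 2.96e-05). Phyh, the first enzyme of phytanic acid α-oxidation, rose over all diet groups (0.43 ± 0.06, adjusted p = 0.000234) and in HFD+AOS against AOS (0.38 ± 0.09, adjusted p = 0.0271). The 1 that fell was Hacl1, the lyase of the same pathway, which read 106, 175 and 141 RPKM in Con, 147, 152 and 154 in AOS, 115, 173 and 165 in HFD, 62.2, 61.8 and 86.8 in HFD+AOS, 113, 108 and 97.8 in Con-FMT, and 63.4, 91.5 and 71.05 in A10-FMT. Hacl1 fell over all diet groups (-0.60 ± 0.12, adjusted p = 0.00364), in HFD+AOS against HFD (-1.09 ± 0.19, adjusted p = 0.00318) and in A10-FMT over HFD (-0.99 ± 0.19, adjusted p = 0.00643). In HFD against Con its value was 0.11 ± 0.19, adjusted p = 0.822.

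Also among the 13 were Amacr, a racemase of branched chains (0.26 ± 0.05, adjusted p = 0.00206), Pecr (0.19 ± 0.06, adjusted p = 0.0357), Ech1 (0.33 ± 0.09, adjusted p = 0.0298), the protease Lonp2 (0.20 ± 0.06, adjusted p = 0.0453) and 6 peroxins, which build peroxisomes: Pex19 (0.24 ± 0.05, adjusted p = 0.0073), Pex2, Pex3, Pex7, Pex11g and Pex14, the last 5 with log2 fold changes from 0.18 to 0.29 and adjusted p values from 0.0187 to 0.0428. In HFD+AOS against HFD, 3 of the 32 rose and 1 fell, where 8.75% of all genes were called in either direction. Pex19 (0.35 ± 0.09, adjusted p = 0.0243) and Pex16 (0.46 ± 0.12, adjusted p = 0.0257) were among the 3. Pex16 was not among the 13 that rose over all diet groups. Without Con replicate 3 and AOS replicate 3, 5 of the 32 were called over all diet groups in either direction, against 4.47% of all genes.

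Of 18 other mitochondrial genes tested, 3 rose over all diet groups and 0 fell (limma, 5 at an unadjusted p under 0.05). These shares lie near the 12.9% and 27.6% of all genes, so that nothing is read from the list. The 3 were Pccb, a subunit of propionyl-CoA carboxylase (0.25 ± 0.05, adjusted p = 0.00712), and the medium-chain synthetases Acsm5 (0.31 ± 0.08, adjusted p = 0.0151) and Acsm3 (0.29 ± 0.08, adjusted p = 0.0196). Pcca, the other subunit of that carboxylase, did not pass (0.11 ± 0.05, adjusted p = 0.181). Hsd17b10, a multifunctional mitochondrial dehydrogenase, rose in HFD+AOS against HFD (0.38 ± 0.11, adjusted p = 0.0455). None of the 3 was called without Con replicate 3 and AOS replicate 3. Of 7 other synthetases tested, 2 fell over all diet groups, Acss2, which activates acetate (-1.04 ± 0.27, adjusted p = 0.0183), and Acsl4 (-0.34 ± 0.09, adjusted p = 0.0294), and 0 rose. In this comparison 12.9% of all genes were called in either direction. Acss3 was at 0.83, 1.86 and 0.98 RPKM in Con, 5.03, 2.71 and 3.07 in AOS, 1.78, 1.76 and 2.31 in HFD, 2.87, 1.75 and 3.95 in HFD+AOS, 2.38, 3.31 and 1.65 in Con-FMT, and 0.75, 1.88 and 3.17 in A10-FMT, and its change over all diet groups was 0.02 ± 0.18, adjusted p = 0.951.

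PPARα and 16 genes listed with it outside the 39 were tested: known targets, its partner Rxra and coactivators. Over all diet groups 9 rose and 1 fell, where 12.9% of all genes were called in either direction. Ppara itself, the partner Rxra and the coactivator gene Ppargc1b were among the 9, so that not all of these were targets. The 1 that fell was Pdk4, a kinase that slows the use of pyruvate (-0.72 ± 0.14, adjusted p = 0.00401). Pdk4 read 1.87, 2.92 and 2.38 RPKM in Con, 2.77, 3.62 and 3.72 in AOS, 2.18, 3.64 and 3.65 in HFD, 1.17, 0.61 and 0.86 in HFD+AOS, 1.47, 1.88 and 0.84 in Con-FMT, and 0.38, 0.27 and 1.43 in A10-FMT. Its HFD livers lay within the range of the regular-diet livers, with a log2 fold change of 0.28 ± 0.23, adjusted p = 0.59 in HFD against Con, and the 8 lowest values of the study were in HFD+AOS, Con-FMT and A10-FMT. Ppara itself read 12.01, 19.5 and 16.97 RPKM in Con, 24.7, 20.2 and 22.3 in AOS, 23.4, 21.3 and 17.2 in HFD, 39.9, 35.1 and 40.3 in HFD+AOS, 27.6, 30.9 and 26.1 in Con-FMT, and 31.5, 29.7 and 33.01 in A10-FMT. It rose over all diet groups (0.59 ± 0.09, adjusted p = 0.00051), in HFD+AOS against AOS (0.75 ± 0.14, adjusted p = 0.00578), in HFD+AOS against HFD (0.87 ± 0.14, adjusted p = 0.002) and in A10-FMT compared with HFD (0.59 ± 0.14, adjusted p = 0.0223). Creb3l3 (0.45 ± 0.07, adjusted p = 0.0011), Rxra (0.20 ± 0.05, adjusted p = 0.0158), Ppargc1b (0.33 ± 0.10, adjusted p = 0.0361), Vnn1 (0.86 ± 0.17, adjusted p = 0.00479), Cd36 (0.36 ± 0.11, adjusted p = 0.0498), Aldh3a2 (0.47 ± 0.10, adjusted p = 0.00694), Angptl4 (0.28 ± 0.09, adjusted p = 0.0428) and Fgf21 (0.68 ± 0.15, adjusted p = 0.00845) rose over all diet groups. Without Con replicate 3 and AOS replicate 3, 5 of the 17 were called, against 4.47% of all genes.

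Fgf21, a liver hormone of fasting and of fat feeding, read 0.98, 0.78 and 1 RPKM in Con, 2.81, 2.2 and 2.29 in AOS, 5.64, 2.46 and 5.15 in HFD, 2.81, 2.27 and 4.2 in HFD+AOS, 5.11, 7.82 and 3.22 in Con-FMT, and 1.08, 1.15 and 1.37 in A10-FMT. It rose in HFD against Con (1.44 ± 0.25, adjusted p = 0.0283) and fell in A10-FMT, both over HFD (-1.25 ± 0.25, adjusted p = 0.00809) and over Con-FMT (-1.47 ± 0.25, adjusted p = 0.00551). Pdk4 fell in HFD+AOS against HFD (-1.13 ± 0.23, adjusted p = 0.00826) and in A10-FMT over HFD (-1.34 ± 0.23, adjusted p = 0.00293). The ω-hydroxylases Cyp4a10 and Cyp4a14, sensitive PPARα targets, fell in A10-FMT against HFD, with log2 fold changes of -2.44 ± 0.70, adjusted p = 0.0474 for Cyp4a10 and -2.84 ± 0.77, adjusted p = 0.0384 for Cyp4a14. Cyp4a14 read 0.2, 0.57 and 0.55 RPKM in Con, 8.78, 1.06 and 3.37 in AOS, 12.7, 10.6 and 17.1 in HFD, 2.07, 3.99 and 18.5 in HFD+AOS, 2.18, 29.6 and 13.9 in Con-FMT, and 0.36, 0.36 and 3.21 in A10-FMT, and single livers of the AOS, HFD+AOS and Con-FMT groups were far above or below their companions. Angptl4, an inhibitor of lipoprotein lipase, read 17.3, 25.04 and 21.3 RPKM in Con, 45.1, 46.1 and 45.3 in AOS, 39.4, 44.2 and 36.5 in HFD, 33.1, 36.5 and 42.2 in HFD+AOS, 26.8, 29.6 and 36.5 in Con-FMT, and 51.1, 45.8 and 38.5 in A10-FMT. It was the 1 gene of these lists that was called in AOS against Con (1.08 ± 0.14, adjusted p = 0.0103) and in the difference between the diet effects (-1.18 ± 0.20, adjusted p = 0.00906). Its log2 fold change was 0.90 ± 0.14, adjusted p = 0.024 in HFD against Con and -0.29 ± 0.14, adjusted p = 0.259 in HFD+AOS against AOS.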

How the data were processed

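RNA sequencing of 18 mouse livers, 6 groups of 3 by the labels, was read from 1 table with a column per liver and 0 columns left unmapped. The deposited values are RPKM with 2 decimals. According to the methods, the authors mapped reads to reference genes with SOAPaligner, under settings that report every hit of a read, and turned the read number of each gene into RPKM. The header names no unit, and the submitters' processing notes name Bowtie 0.12.2 and mm10. The annotation and the use of strand are not given in the sources used here, so that near copies and overlapping genes are uncertain. The study's DEGseq test needs read numbers and was not run.

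The absolute depth is unknown, so no counting interval is given. Over 995 sparse genes the RPKM worth of 1 read, relative to the median of the gene, had a mean of 1.01 to 1.03 over the libraries. Each value was first divided by the whole number nearest to its ratio to the gene's lowest value above 0. Whole-fold differences of depth could therefore not be seen, and like depths are not shown. RPKM summed to between 692303 and 806937 a library, with 14512 to 14982 genes above 0.

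Genes with RPKM of 1 or more in 3 or more libraries (10507) were fitted as log2(RPKM + 1) with limma 3.58.1 (lmFit, then eBayes with trend) in R 4.3.3, 1 mean a group over all 18 libraries, in 9 comparisons. P values are two-sided, and the adjusted p is by Benjamini-Hochberg over all genes tested in a comparison, with 0.05 as the threshold. The fit was checked on simulated data. Tables and plots used Python 3.11.15, pandas 2.3.3, numpy 2.4.6 and matplotlib 3.10.9. Values in every liver are given for members called in any comparison, for the 3 with the smallest p in each and for a fixed set. The members and lists were chosen with earlier results of these data known. Sequences shared between genes were counted as windows of 40 bases of GENCODE transcripts. Promoters are from RefSeq, where 35 of the 39 members matched. The alternatives tried were equal library medians, a pseudocount of 0.1, no filter, a fit of the groups compared, the replicate number as a block, a log2 fold change threshold of 1, and libraries left out. Some genes of the wider pathway lists are not reported here by name.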

Additional observations from a re-analysis of the deposited data

How the results depend on the processing

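The counts of members called depended on the libraries and on the fit, and the cause was not tested unless it lies in the step itself. With the library medians set equal, which moved the median of all genes by -0.07 to 0.08 on the log2 scale, 2 members were called in HFD against Con (0.447% of all genes), 8 in HFD+AOS against AOS (7.3%) and 7 in A10-FMT against HFD (10.2%). With no filter, A10-FMT against Con-FMT held 1, against 0.584% of all genes. In fits of the groups compared, 0 were called in HFD against Con (0.019% of all genes) and 0 for A10-FMT over HFD (0.742%). Such fits called 0 for A10-FMT over Con-FMT (0.0381%) and 1 in the difference of the diet effects (1.3%). Without Con replicate 3 and AOS replicate 3, the counts were 0 in HFD against Con (0% of all genes) and 3 in HFD+AOS against AOS (1.53%). They were 12 over all diet groups (4.47%) and 1 for A10-FMT over Con-FMT (0.78%). Without Con replicate 1 as well, chosen after the data were seen, 5 were called over all diet groups (1.38% of all genes) and the median was 0.16. With a log2 fold change of at least 1 required, 1 was called in A10-FMT against HFD and 1 in HFD+AOS against HFD (Crot and Acot3), and 0 in HFD against Con, in HFD+AOS against AOS, over all diet groups and in A10-FMT against Con-FMT, as fewer genes can pass. Acot3 passed the filter only through HFD+AOS, and the share of all genes at this threshold is not reported here.

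Leaving out 1 liver at a time gave 0 to 12 in HFD against Con (median log2 fold change 0.17 to 0.41), 1 to 7 in A10-FMT against HFD, 3 to 6 in HFD+AOS against HFD, 0 to 3 in A10-FMT against Con-FMT and 0 to 6 in AOS against Con (median 0.19 to 0.39). The share of all genes called in the same fits ran, in that order, from 0% to 1.69%, from 2.58% to 11.6%, from 3.05% to 12.2%, from 0.485% to 5.37% and from 0% to 1.26%. Same-numbered livers of different groups did not deviate together: the correlations of their deviations lay between -0.18 and 0.23, and in 0 of 7 comparisons were all above 0.1. In none of these did every liver correlate best with its own number, so that the numbers give no pairing. With the replicate number as a block, 1 member was called in HFD against Con (0.0476% of all genes) and 1 for A10-FMT over Con-FMT (1.6%). No other count moved by more than 1.5 times. Single members were followed only in comparisons where they were called or had 1 of the 3 smallest p values. Of their values under the alternatives, 779 stayed on the same side of the threshold, 122 lost the call, 5 gained it, and 0 reversed. Values outside this set could change sign. Crot in HFD+AOS against AOS went from -0.01 to 0.03 without Con replicate 3 and AOS replicate 3. Depth cannot be read from RPKM, and differences of low genes such as Acot2 and Acot3 are limited by 3 livers a group.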
